A study of Mus musculus with 132 samples.

Results

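A set of 10 genes that build cell contacts and the apical cell surface at compaction was followed in single cells of mouse preimplantation embryos. They were Cdh1, Ctnna1 and Ctnnb1 of the E-cadherin adhesion complex, Pard3, Pard6b, Prkci and Prkcz of the apical PAR-aPKC complex, and Ezr, Myo10 and Vil1 of microvilli and filopodia. These 10 genes were chosen by name, by their known roles, and each is 1 row of a count table of 32245 genes. All 10 had a count in at least 1 cell.

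The embryos came from C57BL/6 x DBA F1 females mated with males of the same cross, and no allele was altered. At the 2-cell stage, on embryonic day (E) 1.5, they were placed in medium that held either a mimic of the microRNA miR-381-3p or, for controls, an equal concentration of a scrambled mimic, and they stayed in it until collection. Cells were taken one by one at the 8-cell stage (E2.5) or the 32-cell stage (E3.5) and sequenced by Smart-seq2, which amplifies polyadenylated RNA of single cells without molecular identifiers. At the 8-cell stage there were 30 control and 24 mimic cells, and at the 32-cell stage 39 of each. The protocols name 5 µM and 10 µM doses and 3 to 5 embryos per group, but the labels tie no cell to a dose or an embryo. In the study's description the higher dose goes with the earlier stage and the lower dose with the later one, and controls had the concentration of their mimic group, so stage and dose cannot be told apart in either treatment. Because cells of 1 embryo are not independent, each group counts as 1 sample here and no test between groups was possible.

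Compaction is the step at which loosely joined blastomeres flatten against one another, and it is the first sign of epithelial order in the mouse embryo. E-cadherin on neighbouring cells binds to itself, β-catenin joins its tail and α-catenin links the complex to actin. At the free surface of each blastomere the PAR3-PAR6-aPKC complex marks an apical domain, where ezrin ties actin-filled microvilli to the membrane. Cells that keep this domain tend towards trophectoderm (TE), the outer epithelium of the blastocyst, and cells that lack it tend towards inner cell mass (ICM).

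The treatment was a copy of 1 microRNA, so its sequence and its possible pairing sites in the 10 genes are shown first. A microRNA pairs with messenger RNAs mainly through its seed, bases 2 to 8, which are in capitals in the mature sequence (RefSeq, GRCm38.p6, chr12:109726870-109726891, plus strand). In the sites below it, taken from the longest 3′ UTR annotated for the gene, capitals mark the bases that match.
mmu-miR-381-3p: uAUACAAGggcaagcucucugu
Pard6b site, chr2:168101178-168101203, plus strand: ataaaaacggaCTTGTATAaaggcta
Prkci site, chr3:31052677-31052705, plus strand: gtaatctgtatTTGTATAattttttttac

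The sense strand was searched for the 8mer CTTGTATA, the 7mer-m8 CTTGTAT and the 7mer-A1 TTGTATA, and a match to the 8mer was not counted again as a 7mer. Pard6b, the PAR6 isoform of the early embryo, held an 8mer at position 1979 of a UTR of 1993 bases. Prkci, which encodes the atypical kinase aPKCι, held a 7mer-A1 at position 2411 of 2682 bases. The other 8 genes held none of the motifs in the UTR searched. Among 20775 genes with a 3′ UTR, 3.11% held an 8mer, 13.2% a 7mer-A1 and 21.6% any of the motifs, so 2 of 10 is near the share of all genes. Lengths were not matched: the median UTR of all genes had 1091 bases, against 568 in Vil1 and 1262 or more in the rest of the 10. A match is a stretch of letters and was not tested as a binding site.

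In the GRCm38 assembly with GENCODE M21 genes, Cdh1 lies at chr8:106603351-106670246 on the plus strand, Ctnnb1 at chr9:120929216-120960507 on the plus strand, and Ctnna1 on chromosome 18. Pard3 lies at chr8:127063893-127612286, Pard6b at chr2:168081004-168101203 and Prkci at chr3:30995747-31052959, all on the plus strand, while Prkcz lies at chr4:155260129-155361361 on the minus strand. Ezr lies at chr17:6738041-6782784 on the minus strand, and Myo10 at chr15:25622525-25813673 and Vil1 at chr1:74409376-74435559 lie on the plus strand. None is X-linked or Y-linked. Reads were not stranded, so reads from exon bases shared with a gene on the opposite strand cannot be told apart. Such bases numbered 759 for Ctnnb1 with Ulk4, 95 for Ctnna1 with Lrrtm2, 49 for Vil1 with Usp37 and 4 for Ezr with Sytl3.

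Depth ran from 544866 to 3461022 counts per cell, and medians were close between the groups. In 3 of the 24 8-cell mimic cells fewer than 5000 genes had a count, 3243 to 4881, against 5963 or more in the rest of that group. Cdh1 had no count in any of the 3. Counts of Xist, a transcript of the inactive X chromosome, against summed Y-linked genes placed all 39 32-cell control cells on the Y side and all 39 32-cell mimic cells on the Xist side. The 32-cell treatment comparison can therefore not be told apart from a comparison of male and female cells. At the 8-cell stage the Xist side held 23 of 30 control and 14 of 24 mimic cells, so the share of each sex also differs between the stages within each treatment. Of 9 marker genes of cumulus cells, the follicle cells around an egg, all but Amhr2 summed to at most 14.4 CPM in any cell, and Amhr2 brought the sum to 339.2 CPM in 1 8-cell control cell.

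Levels are given as CPM, counts per 1000000 non-mitochondrial counts, pooled over the cells of a group with exact Poisson 95% intervals that cover counting error only and not differences between cells or embryos. Copies made by PCR were not told apart from separate molecules, which these intervals leave out. Differences are of log2(CPM + 1), which understates changes of low genes. Their counting intervals set opposite ends of the intervals of the 2 groups against each other, so they are wider than 95% intervals. A gene is called higher or lower here where the difference was at least 1, a 2-fold change, and the level was at least 20 CPM in either group.

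Set in order per kilobase of exon, α-catenin led in every group. Pooled Ctnna1 stood at 45.5 CPM per kilobase in 8-cell control cells, followed by Cdh1 at 37.1 and Ctnnb1 at 30.1. The polarity genes came next and lower, with Pard6b at 7.48, Prkci at 4.54 and Pard3 at 3.15 CPM per kilobase. Ezr at 1.91, Prkcz at 1.74, Myo10 at 0.995 and Vil1 at 0.882 CPM per kilobase closed the order at the 8-cell stage. In 32-cell control cells the 3 adhesion genes again led, with Ctnna1 at 116.5, Cdh1 at 78.6 and Ctnnb1 at 44.5 CPM per kilobase. Ezr, seventh at the 8-cell stage, stood next to Ctnnb1 at 39.6 CPM per kilobase. In 32-cell mimic cells Ctnnb1 at 71.9 CPM per kilobase stood above Cdh1 at 63.2.

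Neighbours in these orders were not separate in single cells: in 36 of 36 neighbouring pairs over the 4 groups the ranges over cells overlapped. The order of the middle ranks also moved with the length used. Pard3, with 14506 bases of exon in all but 5815 in its longest transcript, moved from rank 8 to rank 5 in 32-cell control cells when the longest transcript set the length. There, Pard6b at 11.7 and Prkcz at 11.7 CPM per kilobase could not be set in order.

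**Figure D1:**
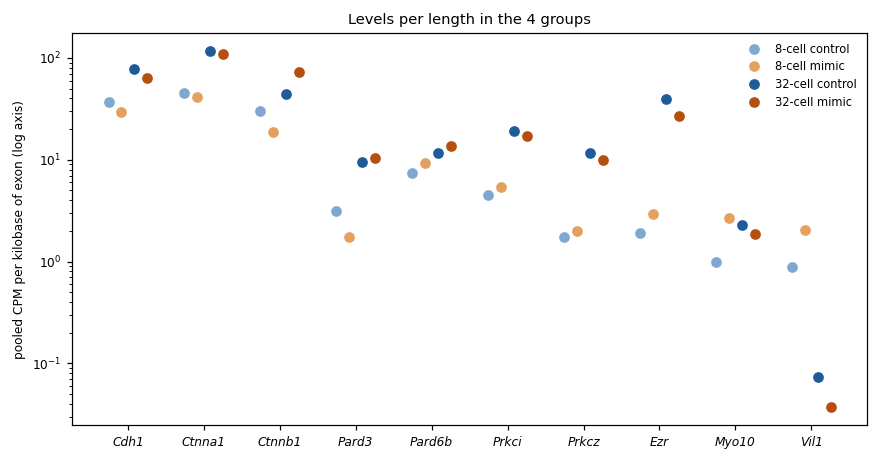
Pooled level of each of the 10 genes per kilobase of exon, in CPM per kilobase on a log axis, in the 4 groups of cells, 1 point per gene and group. Ctnna1 is highest in each group, and Ezr moves from 1.91 to 39.6 CPM per kilobase between 8-cell and 32-cell control cells while Vil1 moves from 0.882 to 0.0742.

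More of these genes were seen together in a cell at the later stage. A median of 6 of the 10 genes had a count in 8-cell control cells and 7 in 8-cell mimic cells, against 8 in both 32-cell groups. Ctnna1 had a count in every cell but 1 of the 3 8-cell mimic cells with few genes. Ezr was counted in 7 of 30 8-cell control cells (23.3%, exact binomial 95% interval 9.93% to 42.3%) and in 35 of 39 32-cell control cells (89.7%, 75.8% to 97.1%). After each cell was thinned to 500000 counts these shares were again 23.3% and 89.7%. Vil1 went the other way, from 5 of 30 8-cell control cells (16.7%) to 3 of 39 32-cell control cells (7.69%), with intervals that overlap, 5.64% to 34.7% and 1.62% to 20.9%.

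**Figure D2:**
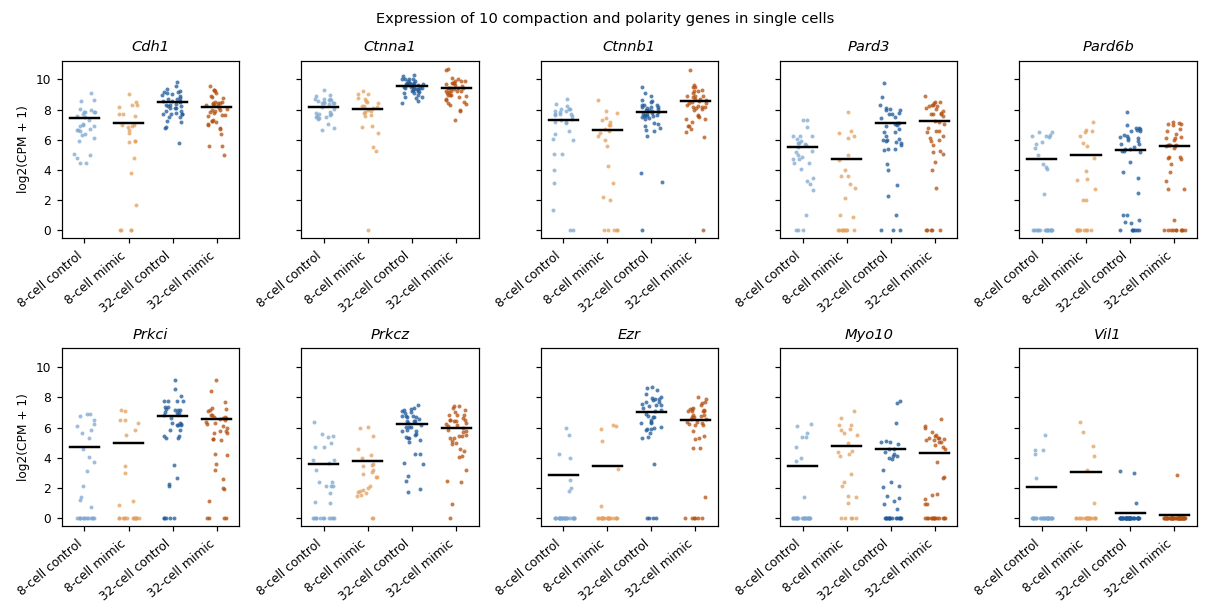
Expression of each of the 10 genes in single cells, as log2(CPM + 1), in the 4 groups. Each point is a cell, its sideways position carries no value, and the black line is the pooled level of the group. Most 8-cell cells sit at 0 for Ezr and most 32-cell cells sit well above 0, and most cells of every group sit at 0 for Vil1.

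The first comparison asked how the genes differ between the stages in control embryos. Of the 10 genes 7 were higher at the 32-cell stage, none was lower, 2 did not reach 2-fold and Vil1 was too low to enter. Ezr had the largest pooled difference, 20.7-fold, though Prkcz was ahead of it among cells on the Y side. Against the 8-cell control cells numbered 87 and 88 alone, Prkcz and Ctnnb1 were ahead of Ezr. Without its highest cell of each group Ezr had a log2 difference of 5.08. In pooled cells the adhesion genes Cdh1 and Ctnna1 were 2.12-fold and 2.56-fold higher. Over all 7469 genes that entered, 50.1% passed 2-fold, 30% being higher and 20.1% lower at the 32-cell stage. Prkcz, Ezr and Myo10 were under 20 CPM at the 8-cell stage and entered through the 32-cell group alone, where they could be called in 1 direction only, so the count is a description. The median difference over all 10 genes was 1.23 on the log2 scale, against 0.20 for all genes that entered.

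E-cadherin, the adhesion molecule itself, had a count in every control cell at both stages. In 8-cell control cells Cdh1 ran from 20.9 CPM in the lowest cell through a median of 122.9 to 541.6 CPM in the highest. At the 32-cell stage the lowest control cell was at 54.8, the median at 312.5 and the highest at 892.5 CPM. The groups overlapped, but 36 of 39 32-cell cells were above the 8-cell median, and the pooled difference was 1.08 (counting interval 1.03 to 1.14). Ctnna1 ran from 100.9 through 308.1 to 634.3 CPM at the 8-cell stage and from 340.8 through 713.2 to 1236 CPM at the 32-cell stage. Here 27 of 39 32-cell cells were above every 8-cell control cell, and the difference was 1.35 (1.31 to 1.395).

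β-catenin, which also carries Wnt signals, differed less in pooled control cells. Ctnnb1 in control cells ran from 0 through 163.8 to 424.2 CPM at the 8-cell stage and from 0 through 209.3 to 714.8 CPM at the 32-cell stage. Its difference of 0.56 (0.50 to 0.62) did not reach 2-fold. The 2 control cells numbered 87 and 88 in the sample titles, apart from the other 28 8-cell control cells, held 7.77 CPM against 168.6 CPM in those 28. Against cells 87 and 88 alone the difference of Ctnnb1 was 4.73.

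All 4 polarity genes were higher in pooled 32-cell control cells, and 3 passed 2-fold. Pard3, the scaffold of the complex, ran from 0 through 33.4 to 161.5 CPM at the 8-cell stage and from 0 through 90.2 to 880.5 CPM at the 32-cell stage, a difference of 1.58 (1.48 to 1.68). Pard6b, which holds the kinase in the complex, ran from 0 through 0 to 92.5 CPM and then from 0 through 41.1 to 228.7 CPM, a difference of 0.63 (0.48 to 0.78) that did not reach 2-fold. Against the 2 control cells numbered 87 and 88 alone, at 73.2 CPM, the Pard6b difference was -0.86, and with each cell weighted alike it was 1.58. The share of control cells with a Pard6b count was 46.7% at the 8-cell and 82.1% at the 32-cell stage, or 74.4% after thinning.

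In pooled control cells the 2 genes of atypical protein kinase C differed more than their scaffolds. In mimic embryos Pard3, at 2.55, was ahead of both. Prkci ran from 0 through 1.49 to 120.6 CPM in 8-cell control cells and from 0 through 78.5 to 564.6 CPM in 32-cell control cells, a difference of 2.03 (1.90 to 2.16). Against the 8-cell control cells numbered 87 and 88 alone, at 53.4 CPM, it was 0.98, short of 2-fold, while Pard3 was at 3.04. Prkcz, which encodes aPKCζ, ran from 0 through 3.32 to 81.9 CPM and then from 2.27 through 64.1 to 178.8 CPM, a difference of 2.64 (2.47 to 2.81). For both genes 16 of 39 32-cell cells were above the highest 8-cell control cell, and the rest overlapped.

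Ezr, which encodes the linker of actin to the microvillus membrane, was counted in few 8-cell and in most 32-cell control cells. It had a median of 0 and a highest value of 62.8 CPM at the 8-cell stage, and ran from 0 through 105.8 to 407.2 CPM at the 32-cell stage. Of 39 32-cell control cells, 27 were above every 8-cell control cell, and the difference was 4.17 (3.98 to 4.37). Myo10, an unconventional myosin of filopodia, ran from 0 through 0 to 72.8 CPM and then from 0 through 1.71 to 218.4 CPM, with a pooled difference of 1.11 (0.90 to 1.32).

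The call for Myo10 rested on some of the cells. Without the 24 32-cell control cells numbered 63 to 86 its difference was -0.10, and without the 28 8-cell control cells numbered 1 to 30 it was -0.12. Vil1, which bundles actin in microvilli, was the 1 gene lower at the later stage, at 3.13 CPM (2.58 to 3.76) in 8-cell and 0.264 CPM (0.148 to 0.435) in 32-cell control cells. Both levels are under 20 CPM, 4 of the 8-cell cells were above every 32-cell control cell, and no call was made.

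In mimic embryos the same comparison again gave 7 genes higher and none lower, where 47.9% of all 7594 genes that entered passed 2-fold, 29.1% higher and 18.8% lower. Cdh1, with a difference of 1.08 (1.02 to 1.15), Ctnna1 with 1.41, Pard3 with 2.55, Prkci with 1.63, Prkcz with 2.22 and Ezr with 3.06 were higher in both treatments. Prkcz and Ezr again entered through the 32-cell group alone. Ctnnb1 was past 2-fold in mimic embryos only, and Myo10 in control embryos only, which shows no difference between treatments by itself. Ctnnb1 in mimic cells ran from 0 through 81.3 to 388.6 CPM at the 8-cell and from 0 through 310.0 to 1559 CPM at the 32-cell stage, a difference of 1.92 (1.85 to 1.99). Myo10 in mimic cells ran from 0 through 17.2 to 139.2 CPM and then from 0 through 5.16 to 94.6 CPM, a difference of -0.50 (-0.68 to -0.32).

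The 3 8-cell mimic cells with few genes moved 1 call of this comparison. Without them the difference of Cdh1 was 0.89, short of 2-fold, and that of Ezr was 2.87. Ctnnb1 was at 112.7 in place of 98.2 CPM in the 8-cell mimic group without them, and its difference was 1.72.

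Within cells of 1 sex the stage differences had the same sign for each of the 10 genes, and 6 genes passed 2-fold in place of 7. On the Y side, 7 8-cell and 39 32-cell control cells, Ezr differed by 3.08, Prkcz by 4.25 and Cdh1 by 0.88. On the Xist side, 14 8-cell and 39 32-cell mimic cells, Ezr differed by 2.70, Pard3 by 3.27 and Cdh1 by 0.82. Cdh1 was the gene short of 2-fold in both.

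**Figure D3:**
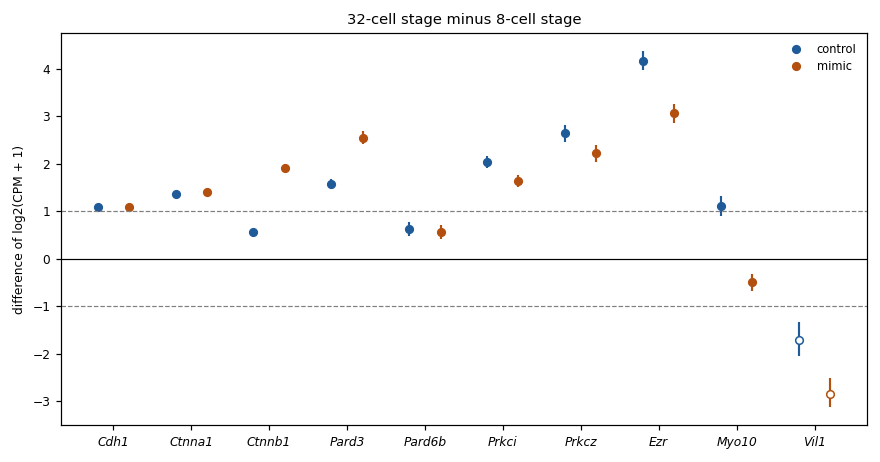
Difference of log2(CPM + 1) between 32-cell and 8-cell cells for each of the 10 genes, in control and in mimic embryos. Bars are counting intervals, open points are genes under 20 CPM in both groups, and dashed lines mark 2-fold. Ezr is highest at 4.17 in control and 3.06 in mimic cells, and Myo10 has opposite signs, 1.11 and -0.50.

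Genes of related machinery were listed by role alongside the 10. Of 11 actomyosin cortex genes, all of which entered, 7 were higher and none lower at the 32-cell stage in control embryos, and 5 were higher and none lower in mimic embryos. Beside these and the next counts stand the shares of all genes, 30% higher and 20.1% lower in control and 29.1% and 18.8% in mimic embryos. The non-muscle myosin heavy chain gene Myh10 stood at 70.3 CPM in 8-cell and 396.0 CPM in 32-cell control cells, and the myosin light chain gene Myl12a at 60.4 and 249.3 CPM. Of 12 genes of ezrin relatives and microvilli 6 entered, 5 higher and 1 lower. Of the 5, Msn, Slc9a3r1, Pls3 and Myo1a were under 20 CPM at the 8-cell stage and could be called higher only. Moesin, the close relative of ezrin encoded by the X-linked gene Msn, stood at 1.96 CPM in 8-cell and 331.8 CPM in 32-cell control cells. Slc9a3r1, the scaffold that binds ezrin, stood at 2.31 and 79.9 CPM. Fscn1, which bundles actin in filopodia, was lower, 61.9 and 21.3 CPM.

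Calls in the junction list were all higher at the 32-cell stage, and the polarity lists had calls in both directions. Of 10 adherens junction genes 5 entered and 1 was higher in control embryos, the immunoglobulin-like adhesion gene Nectin2 at 31.1 and 139.2 CPM. Of 10 other apical polarity genes 5 entered, with Patj higher, 13.7 and 41.8 CPM, and Crb3, the Crumbs protein of epithelia, lower, 145.3 and 56.0 CPM. Of 9 basolateral polarity genes 6 entered, with Llgl2 and Dlg1 higher and the kinase gene Stk11 lower, 67.2 and 30.4 CPM. Patj and Llgl2, the latter at 19.6 CPM, were under 20 CPM in 8-cell control cells and could be called higher only. In mimic embryos 2 of 5 junction genes were higher, Nectin2 at 37.9 and 84.9 CPM and Vcl, which strengthens junctions under tension, at 25.04 and 92.9 CPM. Mpp5, a scaffold of the Crumbs complex, was higher, 11.0 and 40.5 CPM, and Crb3 lower, 88.9 and 36.8 CPM. Of 7 basolateral genes 1 was higher, Dlg1 at 14.6 and 48.9 CPM, and 3 were lower, among them Stk11 and Llgl1, the latter at 115.1 and 47.3 CPM. Of 5 genes of the microvilli list 3 were higher and 1 lower, Fscn1. Mpp5, Dlg1 and those 3, Msn, Slc9a3r1 and Pls3, were under 20 CPM at the 8-cell stage and could be called higher only, while Fscn1 was under 20 CPM at the 32-cell stage and could be called lower only.

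Next, mimic was set against control at the 8-cell stage. Myo10 was the 1 gene of the 7 that entered to pass 2-fold, and it was higher in mimic cells, while 13% of all 6570 genes passed 2-fold, 6.96% higher and 6.09% lower. Myo10 entered through the mimic group alone and could be called in that direction only. It had a count in 9 of 30 control cells and in 19 of 24 mimic cells, or 26.7% and 70.8% of cells after thinning. Pooled Myo10 stood at 10.1 CPM (9.07 to 11.1) in control and 26.9 CPM (25.1 to 28.8) in mimic cells, a difference of 1.33 (1.10 to 1.56). Control and mimic cells overlapped, with 2 mimic cells above every control cell.

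The difference was in the same direction on both sides of the split by Xist and Y-linked counts. Among cells with Xist above Y-linked counts, 23 control and 14 mimic cells, Myo10 stood at 11.1 and 21.7 CPM and the difference was 0.90. Among the 7 control and 10 mimic cells on the Y side it stood at 7.54 and 36.1 CPM, a difference of 2.12. The 10 include the 3 with few genes, of which 2 had no Xist count and 16.5 and 16.7 CPM of Y-linked genes, a level also found on the Xist side, so their sex cannot be told from these counts. Without the 3, Myo10 stood at 43.7 CPM in mimic cells and differed by 2.39, and Prkcz, at 2.94 and 21.2 CPM, was past 2-fold too, at 2.49.

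Pard3 was past 2-fold on the Xist side, lower in mimic cells at 14.8 against 37.1 CPM, with -0.60 on the Y side, -0.84 (-1.003 to -0.67) over all cells and 0.63, the opposite sign, against the control cells numbered 87 and 88 alone. On the Y side Cdh1 differed by -1.17 and Ctnnb1 by -1.37, or by -0.54 and -0.74 without the 3 mimic cells with few genes, against 0.04 and -0.36 on the Xist side. The 2 control cells numbered 87 and 88 held 25.1 CPM of Myo10, and against those 2 alone the difference of mimic cells was 0.10.

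The adhesion genes were somewhat lower in 8-cell mimic cells and stayed under 2-fold. Cdh1 ran from 0 through 106.8 to 513.0 CPM in mimic cells, with a difference of -0.32 (-0.40 to -0.24), and Ctnna1 from 0 through 261.4 to 604.5 CPM, with -0.14 (-0.20 to -0.09). Ctnnb1 differed by -0.66 (-0.75 to -0.58), and 21 of 30 control cells were above the mimic median. Against the control cells numbered 87 and 88 alone Ctnnb1 differed by 3.499 and Ctnna1 by 0.38, in the opposite direction. Part of these differences moved with the 3 mimic cells with few genes: without them Cdh1 differed by -0.12, Ctnna1 by -0.02 and Ctnnb1 by -0.47. When each cell counted alike, so that cells without counts weigh more, Cdh1 differed by -1.31, Ctnnb1 by -1.55 and Pard3 by -1.89, all past 2-fold.

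The 2 genes with a seed match did not differ by 2-fold over all cells at the 8-cell stage. Pard6b stood at 25.4 CPM (23.8 to 27.1) in control and 31.3 CPM (29.3 to 33.3) in mimic cells. Prkci stood at 25.2 CPM (23.6 to 26.9) and 29.96 CPM (28.1 to 31.9). Against the control cells numbered 87 and 88 alone the differences had the opposite sign, -1.20 for Pard6b, past 2-fold, and -0.81 for Prkci. Prkcz, Ezr and Vil1 were under 20 CPM in both groups. Among the related lists, Mpp5 was lower in mimic cells, 11.0 against 38.1 CPM, and Myh10 was higher, 154.4 against 70.3 CPM. Mpp5 entered through the control group alone and could be called lower only. None of the 5 adherens junction genes and none of the 6 basolateral genes that entered passed 2-fold, where 13% of all genes did.

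At the 32-cell stage none of the 9 genes that entered passed 2-fold between mimic and control, where 12.2% of all 7307 genes did, 6.87% higher and 5.36% lower. The largest differences were those of Ctnnb1, higher in mimic cells by 0.69 (0.64 to 0.73), and of Ezr, lower by -0.56 (-0.63 to -0.49). Ctnnb1 had a median of 310.0 CPM in mimic against 209.3 CPM in control cells, 27 of 39 mimic cells were above the control median, and 4 were above every control cell. Ezr ran from 0 through 91.9 to 265.1 CPM in mimic cells, and 4 control cells were above all of them. Mimic cells differed by -0.32 (-0.36 to -0.27) for Cdh1 and by -0.09 (-0.12 to -0.06) for Ctnna1.

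These differences were set beside the spread between runs of consecutive numbers in the sample titles. Runs were taken within a group, and numbers that went on across a change of treatment were cut there, so each run holds 1 treatment by construction. Ctnnb1 stood at 226.9 and 237.7 CPM in the 2 control runs and at 266.4, 362.6 and 521.6 CPM in the 3 mimic runs, which do not overlap. Ezr stood at 115.5 and 152.3 CPM in control runs and at 107.6, 86.2 and 65.3 CPM in mimic runs. Prkci overlapped, with 92.1 and 126.6 CPM in control and 51.1, 76.1 and 171.8 CPM in mimic runs. What a run stands for is not in the labels, and its part in the differences was not tested.

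The seed-match genes were again near each other in both treatments, with pooled Pard6b at 39.8 CPM for control and 46.5 CPM for mimic and Prkci at 105.95 and 95.1 CPM. Of the related lists only Mark2, a basolateral kinase gene, passed 2-fold at this stage over all cells, at 25.4 CPM in mimic against 52.3 CPM in control cells.

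**Figure D4:**
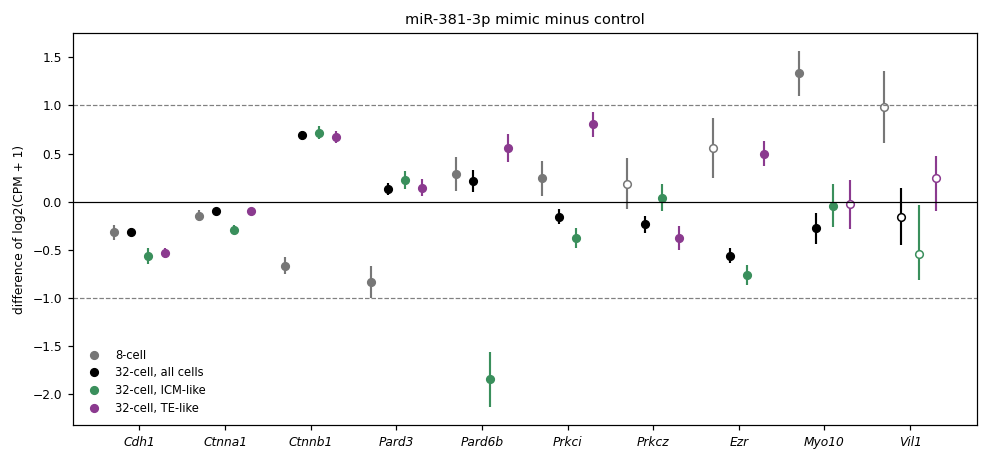
Difference of log2(CPM + 1) between mimic and control cells for each of the 10 genes, at the 8-cell stage, over all 32-cell cells and within the ICM-like and TE-like 32-cell cells. Bars are counting intervals, open points are genes under 20 CPM in both groups, and dashed lines mark 2-fold. Pard6b in ICM-like cells stands apart at -1.85, Myo10 is at 1.33 at the 8-cell stage, and Ctnnb1 lies below 0 at the 8-cell stage and above 0 in the 3 32-cell comparisons.

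The 32-cell cells were then split by cell class, since outer and inner cells are known to differ in polarity. Clusters were formed without the 10 genes and without the related lists, and named from markers: Nanog and Fgf4 are among 9 ICM markers, and Krt8 and Gata3 among 9 TE markers. All 9 of each set were higher in the class named for it, which is how the names were given and is no test. Control cells divided into 25 ICM-like and 14 TE-like cells and mimic cells into 13 and 26. The class names are rebuilt here and do not come from the labels.

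In control embryos, ezrin and aPKCι transcripts were lower in the TE-like cells. These were 2 of the 9 genes that entered, none was higher past 2-fold, and 22.1% of all 7239 genes passed 2-fold, 10.1% higher and 11.9% lower in TE-like cells. Ezr ran from 10.8 through 182.7 to 407.2 CPM in ICM-like and from 0 through 52.3 to 136.3 CPM in TE-like control cells. Of 25 ICM-like cells 24 were above the TE-like median and 17 above every TE-like cell, and the difference was -1.73 (-1.84 to -1.62). Prkci ran from 0 through 123.2 to 564.6 CPM in ICM-like and from 0 through 46.6 to 164.02 CPM in TE-like cells, a difference of -1.56 (-1.69 to -1.44), with 8 ICM-like cells above every TE-like cell.

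Both differences were present in each of the 2 runs of control cells. Ezr stood at 173.3 CPM in the ICM-like and 32.5 CPM in the TE-like cells numbered 63 to 86, and at 206.9 and 86.4 CPM in the other run. Prkci stood at 129.0 and 39.0 CPM in the first run and at 179.1 and 63.5 CPM in the second. TE-like control cells had a median of 1.71e+06 and ICM-like control cells of 1.11e+06 non-mitochondrial counts. Myo10 stayed under 2-fold, with pooled differences of -0.89 (-1.12 to -0.66) in control and -0.87 (-1.12 to -0.63) in mimic embryos.

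E-cadherin had the opposite order. Cdh1 ran from 54.8 through 239.2 to 516.1 CPM in ICM-like and from 238.1 through 516.7 to 892.5 CPM in TE-like control cells. The difference of 0.85 (0.80 to 0.91) was under 2-fold, 13 of 14 TE-like cells were above the ICM-like median, and 7 were above every ICM-like cell. In mimic embryos Cdh1 differed by 0.89 (0.81 to 0.96). TE-like cells held more Cdh1 in each of the 5 runs of 32-cell cells: 494.2 against 243.1 and 469.4 against 305.5 CPM in control, and 378.1 against 263.3, 259.0 against 81.3 and 361.5 against 155.7 CPM in mimic embryos. Ctnna1 differed by 0.21 in control and 0.40 in mimic embryos, and Ctnnb1 by 0.00 and -0.04.

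Relatives and partners of ezrin differed in both directions. Msn was higher in TE-like cells, 583.6 against 143.6 CPM, as was Slc9a3r1, 146.2 against 30.3 CPM, whereas radixin (Rdx), the third member of the ezrin family, was lower, 168.8 against 362.8 CPM, as was Fscn1, 11.0 against 28.995 CPM. Of 6 genes of that list that entered, 3 were higher and 2 lower, beside 10.1% higher and 11.9% lower among all genes. Fscn1 entered through the ICM-like cells alone and could be called lower only. Crb3 was higher in TE-like control cells, 94.8 against 27.1 CPM, and each of the 14 was above the ICM-like median. The basolateral gene Llgl2 was higher, 82.9 against 29.5 CPM, and Dlg1 lower, 25.6 against 57.4 CPM. Vcl was higher, 99.6 against 35.1 CPM. In the cortex list 3 of 11 genes were higher and 1 lower in TE-like control cells, beside the same shares of all genes. Myh10 stood at 645.1 against 209.8 CPM and Actn4, an actin cross-linker, at 1117 against 417.2 CPM, while Rock1, a kinase that drives actomyosin tension, was lower at 86.6 against 176.5 CPM.

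In mimic embryos the pooled classes differed past 2-fold in Pard6b, 1 of 9 genes, with 16.2% of all 7416 genes past 2-fold, 8.68% higher and 7.52% lower in TE-like cells. It entered through the TE-like cells alone and could be called in that direction only. Pard6b had a count in 7 of 13 ICM-like mimic cells, which ran from 0 through 0.573 to 42.03 CPM, and in 22 of 26 TE-like mimic cells, which ran from 0 through 49.7 to 140.9 CPM. Of the TE-like cells 18 were above every ICM-like cell, and the difference was 2.53 (2.26 to 2.80). With classes by marker score, 22 TE-like and 17 ICM-like mimic cells, it was 1.01, and with clusters from odd-ranked genes 1.45. In control embryos the classes were close in Pard6b, at 38.3 CPM in ICM-like and 41.9 CPM in TE-like cells, with a difference of 0.13 (-0.04 to 0.29). Each of the 3 mimic runs had the order of the pooled cells, 75.5 against 6.98, 53.9 against 15.3 and 56.0 against 7.59 CPM, the last from 2 ICM-like cells.

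Ezr and Prkci differed between the pooled classes of mimic embryos by -0.47 (-0.59 to -0.35) and -0.38 (-0.50 to -0.26). With each cell weighted alike both passed 2-fold, at -1.07 and -1.14, and with classes by marker score Ezr was at 0.03. Ezr stood at 109.9 CPM in ICM-like and 78.8 CPM in TE-like mimic cells, and Prkci at 113.7 and 87.2 CPM. In the mimic run with the highest numbers the order of Ezr was turned, with 28.7 CPM in 2 ICM-like and 73.9 CPM in 7 TE-like cells. Crb3, Llgl2, Slc9a3r1, Myh10 and Actn4 were higher in TE-like mimic cells as well, and Msn, at 206.3 against 112.9 CPM, stayed under 2-fold. Llgl2, at 17.4 CPM in ICM-like mimic cells, entered through the TE-like cells alone and could be called higher only.

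**Figure D5:**
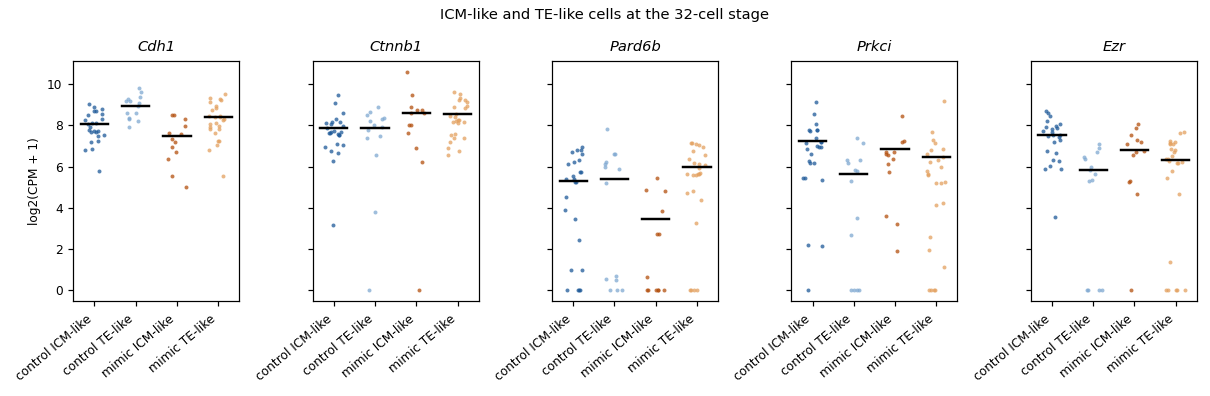
Expression of 5 of the genes as log2(CPM + 1) in single 32-cell cells, by treatment and class. Each point is a cell, its sideways position carries no value, and the black line is the pooled level. Ezr and Prkci are higher in ICM-like than in TE-like control cells, Cdh1 is higher in TE-like cells of both treatments, and Pard6b is low in the 13 ICM-like mimic cells, at 9.93 CPM.

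Within the ICM-like cells, Pard6b was the 1 gene of 9 past 2-fold between treatments, lower in mimic cells, with 19.9% of all 7361 genes past 2-fold, 10.4% higher and 9.52% lower. It entered through the control cells alone and could be called in that direction only. It stood at 38.3 CPM (36.2 to 40.5) in 25 control cells and 9.93 CPM (8.44 to 11.6) in 13 mimic cells, a difference of -1.85 (-2.14 to -1.56). Of the control cells 21 were above the mimic median and 11 above every mimic cell. The call depended on which cells were counted as ICM-like. In clusters built from odd-ranked genes, where 2 mimic cells joined the class and 1 left it, the mimic level was 20.6 CPM and the difference -0.86, and with classes by marker score, 17 mimic cells, it was -0.39.

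The other genes of ICM-like cells were under 2-fold over all cells of the class. Ezr differed by -0.76 (-0.86 to -0.65), Cdh1 by -0.56 (-0.64 to -0.48), Prkci by -0.38 (-0.49 to -0.27) and Ctnnb1 by 0.72 (0.65 to 0.79). Some of these passed 2-fold in other settings. Without the mimic run with the lowest numbers Cdh1 was at -1.30, Ctnnb1 at 1.20 and Ezr at -1.23, and without the control cells numbered 63 to 86 Myo10 was at 1.23 in place of -0.04. Ezr was also past 2-fold with each cell weighted alike, at -1.06, and with classes by marker score, at -1.09. Rdx, Jup, which encodes plakoglobin, and Patj were lower in ICM-like mimic cells, at 177.5 against 362.8, 17.7 against 38.5 and 22.5 against 48.0 CPM. Jup entered through the control cells alone and could be called lower only. These genes of the related lists were not recomputed with the other classes.

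Within the TE-like cells none of the 8 genes that entered passed 2-fold between treatments, where 19.5% of all 7345 genes did, 11.8% higher and 7.67% lower. Prkci differed by 0.81 (0.68 to 0.94), Ctnnb1 by 0.68 (0.61 to 0.74), Pard6b by 0.55 (0.41 to 0.70), Ezr by 0.50 (0.37 to 0.63) and Cdh1 by -0.53 (-0.58 to -0.48). Several partners were lower in TE-like mimic cells. Slc9a3r1 stood at 48.9 against 146.2 CPM, Msn at 206.3 against 583.6 CPM and Myo1a, a microvillus myosin, at 13.7 against 41.4 CPM, so 3 of the 5 genes of the microvilli list that entered were lower. Crb3 stood at 43.8 against 94.8 CPM, and none of 26 mimic cells was above the control median. Afdn, Nectin2, Mark2 and Stk11 were lower as well, and Rock1 was higher, 212.1 against 86.6 CPM. Myo1a and Stk11, the latter at 15.8 CPM in mimic cells, entered through the control cells alone and could be called lower only.

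Cell-to-cell variation was compared among 9 of the genes, Vil1 being counted in too few cells. Over all cells, with ranks taken within each group, the 36 pairs among these genes, each with a count in at least 50% of cells, had rank correlations from -0.24 to 0.18, with a median of 0.04. None of the 6736 genes compared reached 0.5 with any of them, the limit set for naming a gene of like pattern. The highest value was 0.46 between Cdh1 and Krt18, a keratin gene that is 1 of the TE markers, which is named here after its value was seen. The points share cells, depth and possibly embryos, and the values are descriptions.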

How the data were processed

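The authors sequenced single cells by Smart-seq2 and, per the labels, processed reads with STAR 2.5.1b and RSEM 1.3.0 on mm10 (GRCm38). The deposited file is 1 table of expected counts rounded to whole numbers, 32245 genes by 1 column per cell, 54 at the 8-cell and 78 at the 32-cell stage. All cells passed the study's filter of 3000 genes and 10% mitochondrial counts. Groups came from the stage and treatment labels. The 10 genes, the related lists and the comparisons were chosen with earlier results of these data known.

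Counts were divided by totals without the 13 mitochondrial genes (CPM). Pooled CPM have exact Poisson intervals and shares of cells have Clopper-Pearson intervals, both at 95%. Differences are of log2(CPM + 1), called past 2-fold at 20 CPM or more in either group. No p-value was computed because each group is 1 sample. For shares, each cell was thinned to 500000 counts.

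Related genes were named by rule: in each list and comparison, up to 2 with the largest rise and 2 with the largest fall past 2-fold, and any other was named after its values were seen. Classes at the 32-cell stage came from Seurat 5.3.0 (2000 variable genes, 25 components, resolution 0.6). Lengths and UTRs came from GENCODE M21, whose release is not the one the authors used. The difference and thinning steps were tested on simulated data. TMM factors came from edgeR 4.0.16 and were used as an alternative only. Doublets were not called, since cells were isolated singly.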

Additional observations from a re-analysis of the deposited data

Results flagged for a closer look

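Of the 10 genes, 5 had differences of opposite sign under the same contrast in 2 settings, each beyond its counting interval and at least 1 apart on the log2 scale. None of these was tested, since each group is 1 sample.

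Myo10 was higher at the 32-cell stage in control embryos (1.11) and lower in mimic embryos (-0.50), a gap of -1.61, and the same gap stands between its treatment differences at the 8-cell (1.33) and the 32-cell stage (-0.28). Without the 32-cell control cells numbered 63 to 86 the opposite signs of Myo10 were lost, with a stage difference of -0.10 in control embryos and a 32-cell treatment difference of 0.94. Ctnnb1 was lower in mimic cells at the 8-cell stage (-0.66) and higher at the 32-cell stage (0.69), a gap of 1.35. Without the 8-cell control cells numbered 1 to 30, which leaves 2 control cells, the 8-cell value of Ctnnb1 was 3.499 and that of Ezr -0.20. Ezr was higher in mimic cells at the 8-cell stage (0.55, from levels under 10 CPM, with 1.84 on the Xist side and -1.503 on the Y side) and lower at the 32-cell stage (-0.56), a gap of -1.11. Dose differs between the stages, and sex differs along the stage contrasts and the 32-cell treatment contrast. Within 1 sex the stage differences of Myo10 were 1.49 in control and -0.20 in mimic embryos, and the part of dose was not tested.

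Within the 32-cell classes, Pard6b was lower in ICM-like mimic cells (-1.85) and higher in TE-like mimic cells (0.55), a gap of 2.40. Prkci had -0.38 and 0.81, a gap of 1.18, and Ezr -0.76 and 0.50, a gap of 1.26. For Ezr the TE-like value was -0.13 without the 32-cell control cells numbered 63 to 86. For Prkci the ICM-like value was 0.14 without the mimic run of the lowest numbers, and the TE-like value was 0.15 without that of the highest. For Pard6b the ICM-like value was -0.39 with classes by marker score.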

How the results depend on the processing

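Counts of the 10 genes past 2-fold were recomputed under the alternatives. For the stage comparisons they ranged from 5 to 8 in control and from 6 to 8 in mimic embryos, against 7 in both, for treatment at the 32-cell stage they were 0 throughout, and for the classes of control embryos 2 or 3 against 2. With each cell weighted alike, 4 genes passed at the 8-cell stage in place of 1, 2 in ICM-like cells in place of 1, 2 in TE-like cells in place of 0 and 3 between mimic classes in place of 1. Without the highest cell of each gene 2 passed at the 8-cell stage. Among cells on the Y side 3 passed there, or 2 without the mimic cells with few genes. Clusters from odd-ranked genes gave 0 between treatments in ICM-like cells, and classes by marker score gave 2 between mimic classes. Leaving out 1 run of title numbers gave 1 to 2 for treatment at the 8-cell stage, 1 to 4 in ICM-like cells, 0 to 2 in TE-like cells and 1 to 3 between mimic classes. The runs left out for the classes, the 8-cell mimic cells with few genes, and the split by sex, other than the Xist side at the 8-cell stage, were chosen after seeing the data. Of the single differences, the stage difference of Myo10 in control embryos turned from 1.11 to -0.12 without 8-cell control cells 1 to 30, which leaves 2 cells, to -0.10 without 32-cell control cells 63 to 86, and to 1.58 without the other 32-cell control run. Without cells 1 to 30 the stage difference of Pard6b in control embryos was -0.86 in place of 0.63. The causes were not tested beyond the cells left out. No paired analysis was possible because replicate numbers name single cells of 1 sample and no test was made. Genes under 20 CPM in both groups, such as Vil1, were not called.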
